A study of Mus musculus with 2 samples.

Results

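The collagen genes were described across the mesenchymal and vessel cells of healing mouse skull bone. They were taken as every symbol in the deposited gene lists made of Col, a number, the letter a and a number, which gave 44 of 27998 listed genes. In the cells kept here, 42 of the 44 had at least 1 UMI in the CGG-Cit library and 43 had at least 1 in the CGG library. A UMI (unique molecular identifier) stands for 1 captured RNA molecule. The CGG-Cit library came from parietal defects that had received CGG-Cit hydrogel, and the CGG library from defects that had received CGG hydrogel. Both used wild-type C57BL/6 mice, with defects of 2 mm trimmed out on day 14, digested in 0.3% collagenase and strained at 70 µm. The labels do not spell out CGG or Cit and give neither the age of the mice nor how many were pooled per library. With 1 library for each hydrogel no test was possible: the 95% intervals below cover counting error and nothing else, and a difference between hydrogels cannot be told apart from one between 2 animals, digestions or runs.

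Collagens are the main structural proteins of connective tissue, secreted as chains wound into a helix. Fibrillar collagens such as type I and type III form the cables of bone, skin and scar. Type IV collagen forms the sheet under vessel walls, type VI forms beaded filaments around cells, and smaller members decorate fibrils, anchor membranes or span the cell surface. In the healing skull, fibroblast-like and osteoblast-like cells are the usual source of fibrillar collagen, and endothelial and mural cells build the vessel's basement membrane.

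After quality filters and removal of predicted doublets, 9994 CGG-Cit cells with 95785575 UMIs and 11048 CGG cells with 82107891 UMIs remained. The libraries shared 34 cell barcodes. Cells were gated by lists of 8 marker genes that contain no collagen: a cell needed a UMI of at least 3 markers of a lineage and at least 2 more than of any other lineage. The mesenchymal gate held 43 CGG-Cit and 2376 CGG cells, the endothelial gate 46 CGG-Cit and 198 CGG cells, and the mural gate (pericytes and vascular smooth muscle) 8 CGG-Cit and 60 CGG cells. Genes outside the marker lists that led the gates fitted these names. Bgn and Ogn were among the leading genes of mesenchymal cells in both libraries, and Mgp and Sparc in CGG-Cit only. Plvap and Ptprb were among those of endothelial cells and Acta2 and Tagln among those of mural cells, in both libraries. At least 1 UMI of Ptprc, the common leukocyte gene CD45, was present in 11.6% of CGG-Cit and 33.9% of CGG mesenchymal cells. Levels are given as CPM, the UMIs of a gene scaled to a fixed total of UMIs over all cells in the gate. The 3′ counts are per molecule and were not divided by gene length. No source used here says whether counting used strand, and exons of 6 collagen genes overlap those of another counted gene on the opposite strand: Col4a1 with Col4a2, Col4a2 also with Gm15419, Col9a3 with Tcfl5, Col10a1 with Nt5dc1, Col15a1 with Gm12426 and Col22a1 with Gm16308. B-lineage cells, 3834 in CGG-Cit and 921 in CGG, served as the background for RNA free in the suspension.

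Promoter windows are shown first for the genes of the vessel sheet, because Col4a1 and Col4a2 were the most abundant collagens of the endothelial gate in both libraries. Both lie on chromosome 8 of the mouse genome, Col4a1 from 11198423 to 11312826 on the minus strand and Col4a2 from 11312805 to 11449287 on the plus strand (GRCm38), so that they are transcribed away from each other from start sites 21 bases apart. Each window runs from 250 bases before the start site to 50 bases after it, in RefSeq's annotation of GRCm38.p6, and capitals mark the 78 bases that the windows share, printed on opposite strands.
Col4a1 (chr8:11312777-11313076, - strand): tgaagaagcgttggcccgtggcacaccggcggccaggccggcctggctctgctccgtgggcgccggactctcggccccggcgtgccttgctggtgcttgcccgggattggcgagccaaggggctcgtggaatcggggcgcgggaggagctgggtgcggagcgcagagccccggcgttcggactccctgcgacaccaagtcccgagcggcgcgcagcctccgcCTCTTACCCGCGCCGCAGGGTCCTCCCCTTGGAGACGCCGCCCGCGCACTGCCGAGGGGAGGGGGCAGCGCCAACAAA
Col4a2 (chr8:11312555-11312854, + strand): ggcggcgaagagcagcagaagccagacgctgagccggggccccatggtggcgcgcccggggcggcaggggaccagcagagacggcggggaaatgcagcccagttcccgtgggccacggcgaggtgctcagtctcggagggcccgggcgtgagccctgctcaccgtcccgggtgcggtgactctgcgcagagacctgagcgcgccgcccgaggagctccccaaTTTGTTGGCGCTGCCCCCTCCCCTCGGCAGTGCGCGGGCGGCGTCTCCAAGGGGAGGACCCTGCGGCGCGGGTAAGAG
The window of Col1a2, the second chain of type I collagen, is set beside them, with capitals for the motif CCAAT on either strand.
Col1a2 (chr6:4505368-4505667, + strand): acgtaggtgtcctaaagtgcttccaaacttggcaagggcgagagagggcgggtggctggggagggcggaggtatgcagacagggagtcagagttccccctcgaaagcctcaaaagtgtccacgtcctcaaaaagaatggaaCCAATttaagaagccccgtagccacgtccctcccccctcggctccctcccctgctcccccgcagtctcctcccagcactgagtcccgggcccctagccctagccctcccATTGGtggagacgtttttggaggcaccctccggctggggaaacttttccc
The table of promoters matched 35 of the 44 collagen genes. CCAAT, counted on both strands, occurred in 13 of these 35 (37.1%) against 37.4% of all 32851 windows, and in each of the 3 printed. GGGCGG, also on both strands, occurred in 22 of 35 (62.9%) against 35.7% of all windows, again in each of the 3 printed. TATAA occurred in 7 of 35 against 24.9% of all windows and in none of the 3. A collagen gene was counted if any window of it matched, whereas the percents of all windows are per window. These are matches of letters only.

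Mesenchymal cells carried most collagen RNA. Collagen genes took 6.46% of their UMIs in the CGG-Cit library (interval 6.40 to 6.51) and 6.85% in the CGG library (6.84 to 6.87), and this gate held 66.9% of all collagen UMIs of CGG-Cit and 84.0% of those of CGG. Single cells ranged widely: the median mesenchymal cell gave 6.10% of its UMIs to collagen in CGG-Cit (lowest 0.773, highest 15.6) and 5.55% in CGG (0.0299 to 28.7). In CGG-Cit mural cells gave 1.21%, endothelial cells 0.428% and B-lineage cells 0.00716%. In CGG mural cells gave 2.05%, endothelial cells 0.811% and B-lineage cells 0.146%. The 2 libraries thus had like shares in mesenchymal cells and very unlike backgrounds. Cells with at least 3 mesenchymal markers that missed the margin stayed ungated: 19 CGG-Cit cells, with 23.1% of that library's collagen UMIs, and 2079 CGG cells, with 11.5%.

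**Figure D1:**
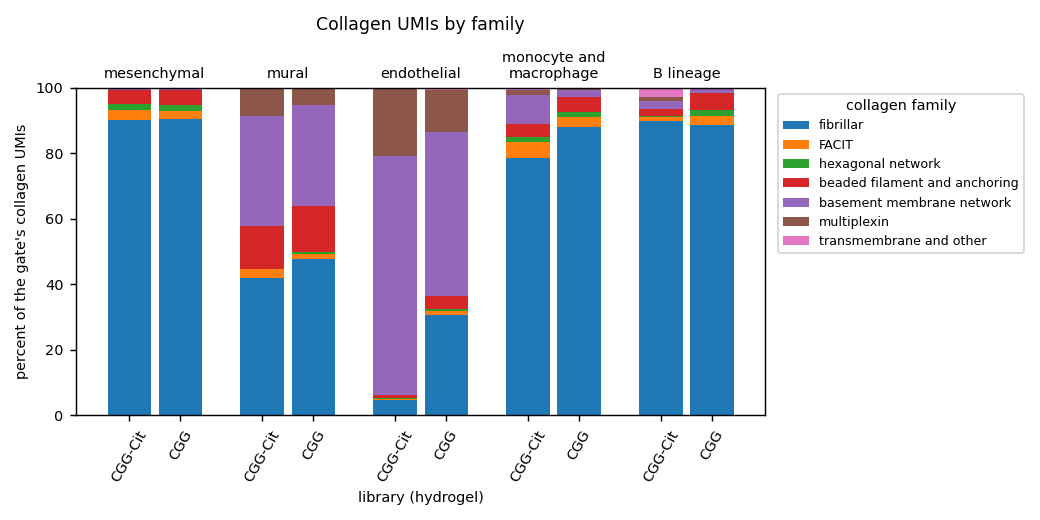
Collagen UMIs divided by family, as a percent (vertical axis) of all collagen UMIs of each gate, with CGG-Cit left of CGG. Fibrillar genes hold 90.2% in CGG-Cit and 90.5% in CGG mesenchymal cells, whereas type IV genes hold 72.7% in CGG-Cit and 49.8% in CGG endothelial cells; the mural CGG-Cit bar rests on 8 cells.

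Fibrillar genes made up 90.2% of the mesenchymal collagen UMIs in CGG-Cit and 90.5% in CGG. Col1a2 and Col1a1, the chains of type I collagen, were the first and second most abundant of all genes in CGG mesenchymal cells, and Col3a1, the type III chain of young and soft connective tissue, was the 4th. Col1a2 stood at 21507 CPM in CGG-Cit and 21858 CPM in CGG mesenchymal cells. Col1a1 stood at 20965 CPM in CGG-Cit and 19739 CPM in CGG, and Col3a1 at 13207 CPM in CGG-Cit and 17392 CPM in CGG. Type I protein holds more Col1a1 than Col1a2 chains, but these counts gave 0.975 Col1a1 UMIs for each Col1a2 UMI in CGG-Cit mesenchymal cells (interval 0.954 to 0.996) and 0.903 in CGG (0.900 to 0.907).

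Minor fibrillar chains, which co-assemble with types I and III and set fibril width, were less abundant. Col5a2 had 1278 CPM in CGG-Cit and 1554 CPM in CGG mesenchymal cells. Col5a1 had 616 CPM in CGG-Cit and 862 CPM in CGG, and Col11a1, better known from cartilage, had 553 CPM in CGG-Cit and 345 CPM in CGG. Col5a1 kept 0.482 UMIs for each Col5a2 UMI in CGG-Cit (0.431 to 0.539) and 0.555 in CGG (0.546 to 0.564). Col5a3 had 72.1 CPM in CGG-Cit and 186 CPM in CGG, Col27a1 27.5 CPM in CGG-Cit and 44.3 CPM in CGG, Col11a2 5.24 CPM in CGG-Cit and 25.6 CPM in CGG, and Col24a1 2.62 CPM in CGG-Cit and 4.39 CPM in CGG, from 2 UMIs in CGG-Cit and 111 UMIs in CGG. Col2a1, the main cartilage collagen, had 0 UMIs in CGG-Cit and 4 UMIs in CGG in these cells.

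The beaded-filament genes of type VI collagen came next. Col6a1, Col6a2 and Col6a3 had 1271, 957 and 501 CPM in CGG-Cit mesenchymal cells, against 1373, 1026 and 630 CPM in CGG. The alternative chains were rare, Col6a6 at 15.7 CPM in CGG-Cit and 11.4 CPM in CGG, Col6a5 at 1.31 CPM in CGG-Cit and 14.2 CPM in CGG from 1 UMI in CGG-Cit and 359 UMIs in CGG, and Col6a4 at 1 UMI in CGG-Cit and 20 UMIs in CGG. Col7a1, of the anchoring fibrils under skin, had 13.1 CPM in CGG-Cit and 16.1 CPM in CGG. The fibril-associated genes Col12a1, Col14a1 and Col16a1 had 950, 524 and 358 CPM in CGG-Cit, against 766, 689 and 277 CPM in CGG. Col8a1 and Col8a2, which form hexagonal lattices, had 936 and 235 CPM in CGG-Cit, against 983 and 259 CPM in CGG. Col10a1, the marker of hypertrophic cartilage, had 0 UMIs in both.

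Type IV genes were present but low in mesenchymal cells, with Col4a1 at 211 CPM in CGG-Cit and 192 CPM in CGG and Col4a2 at 152 CPM in CGG-Cit and 121 CPM in CGG. Col4a5, a chain of the specialised sheets of kidney and smooth muscle, had 44.6 CPM in CGG-Cit and 35.9 CPM in CGG. The multiplexin genes Col18a1 and Col15a1, whose proteins are part of or lie beside basement membranes, had 56.3 and 7.86 CPM in CGG-Cit, against 74.2 and 34.1 CPM in CGG. Of the rest, Col23a1, a transmembrane collagen, had 28.8 CPM in CGG-Cit and 12.1 CPM in CGG. Members under 5 UMIs in both libraries' mesenchymal cells were Col2a1, Col4a3, Col10a1, Col17a1, Col19a1 and Col28a1. Col20a1 had 1 UMI in CGG-Cit and 8 UMIs in CGG.

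**Figure D2:**
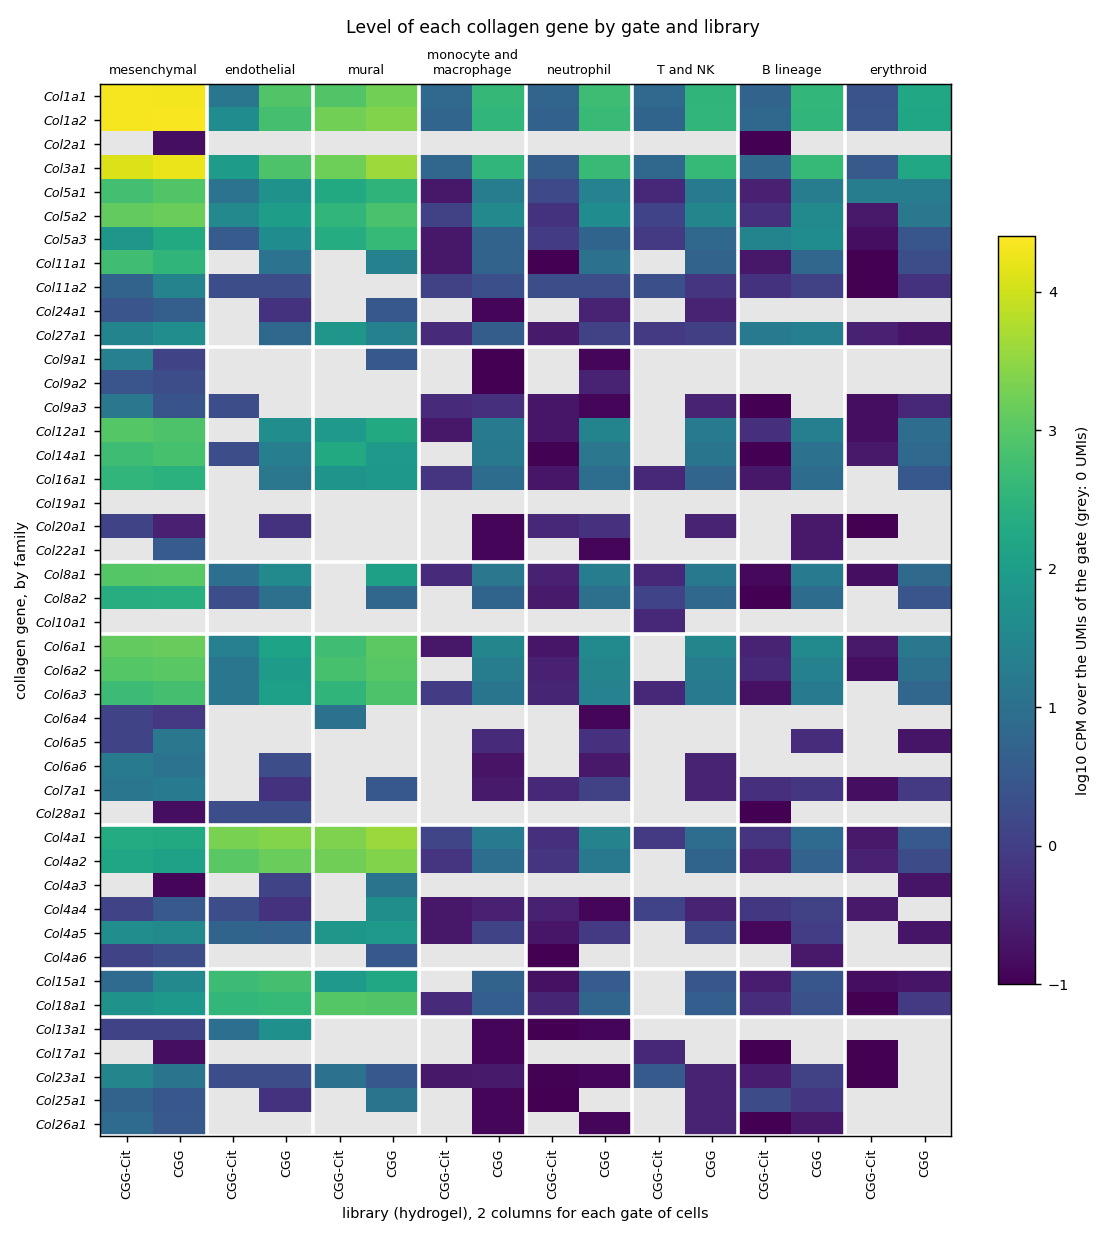
Level of each of the 44 collagen genes (rows, grouped by family) as log10 CPM in 8 gates, with the CGG-Cit library left of the CGG library in each pair. Mesenchymal cells are brightest for Col1a1, Col1a2 and Col3a1, vessel cells for Col4a1, Col4a2, Col15a1 and Col18a1, and the blood-cell columns are darker in CGG-Cit than in CGG for Col1a1, Col1a2 and Col3a1; grey marks 0 UMIs, and mural CGG-Cit rests on 8 cells.

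Endothelial cells held another set of collagens. Past a 4-fold difference from mesenchymal cells of the same library, with at least 20 UMIs over both, 5 of 37 collagen genes were higher in CGG endothelial cells (6.02% of all genes so tested) and 22 were lower (6.30% of all genes). In CGG-Cit 4 of 22 were higher (7.21% of all) and 18 lower (9.33%). Type IV genes held 72.7% of the endothelial collagen UMIs in CGG-Cit and 49.8% in CGG.

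The genes above the fold were those of the basement membrane and, in CGG, Col13a1. Col4a1 had 2062 CPM in CGG-Cit endothelial cells, against 211 CPM in mesenchymal cells (9.77-fold, 8.28 to 11.6), and 2560 CPM in CGG, against 192 CPM (13.3-fold, 12.8 to 13.9). Col4a2 had 1043 CPM against 152 CPM in CGG-Cit and 1469 CPM against 121 CPM in CGG, 6.86-fold in CGG-Cit and 12.1-fold in CGG. Col4a1 UMIs outnumbered Col4a2 UMIs in each stromal and vessel gate: 1.98 Col4a1 UMIs for each Col4a2 UMI in CGG-Cit endothelial cells (1.78 to 2.19), 1.74 in CGG endothelial, 1.33 in CGG-Cit and 1.66 in CGG mural, and 1.39 in CGG-Cit and 1.58 in CGG mesenchymal cells. These are the head-to-head genes printed above.

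Col15a1 had 512 CPM in CGG-Cit endothelial cells, against 7.86 CPM in mesenchymal cells, and 643 CPM in CGG, against 34.1 CPM, which is 65.1-fold in CGG-Cit (29.5 to 179) and 18.8-fold in CGG (17.2 to 20.7). Col18a1, the source of the fragment endostatin, had 373 CPM against 56.3 CPM in CGG-Cit and 412 CPM against 74.2 CPM in CGG. Col13a1, a transmembrane collagen, had 51.0 CPM in CGG endothelial cells, from 81 UMIs in 33 of 198 cells, against 1.30 CPM in CGG mesenchymal cells, 39.1-fold (25.8 to 60.6). In CGG-Cit it had 5 UMIs in 46 endothelial cells and 1 in mesenchymal cells, too few to be tested. Col13a1 was at 0 UMIs in B-lineage cells of both libraries.

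Fibrillar genes in endothelial cells were read against the background, and at least 1 UMI of Ptprc was present in 15.2% of CGG-Cit and 31.8% of CGG endothelial cells. Col1a1 had 13.1 CPM in CGG-Cit and 842 CPM in CGG endothelial cells, while B-lineage cells of the same libraries had 5.26 CPM in CGG-Cit and 382 CPM in CGG. With every cell thinned to 1000 UMIs, 40.4% of CGG endothelial cells kept a Col1a1 UMI and so did 40.8% of CGG B-lineage cells (84.3% and 79.6% unthinned, at median depths of 6614 UMIs in endothelial and 2873 UMIs in B-lineage cells). In CGG-Cit these shares were 0 of 45 endothelial cells (95% interval up to 7.87%) and 0.875% of B-lineage cells (6.52% and 3.05% unthinned, at 8800 UMIs in endothelial and 3274.5 UMIs in B-lineage cells). For Col4a1 the thinned shares were 80.0% of CGG-Cit endothelial and 0.0531% of B-lineage cells, and 73.6% of endothelial and 1.09% of B-lineage cells in CGG. Of 8 fibrillar genes tested in CGG, 0 were 4-fold higher in endothelial than in B-lineage cells, with a median log2 ratio of 0.87 over the 7 of at least 10 CPM. In CGG-Cit 3 of 6 were higher (Col1a2, Col3a1 and Col5a2) and Col5a3 was lower. The 3 rested on few cells: of 46 CGG-Cit endothelial cells, 8.70% had a Col1a2 UMI, 8.70% a Col3a1 UMI and 15.2% a Col5a2 UMI. After thinning, 1 of 45 cells kept a UMI for each of these genes. Over all collagen genes, 8 of 12 were 4-fold higher in endothelial than in B-lineage cells of CGG-Cit (13.4% of all genes) and 1 was lower (5.86%). In CGG 7 of 21 were higher (15%), namely Col4a1, Col4a2, Col6a2, Col6a3, Col13a1, Col15a1 and Col18a1, and 0 were lower (7.58%).

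Mural cells carried basement membrane and fibrillar genes together. In CGG, 6 of 37 collagen genes were 4-fold higher in mural than in mesenchymal cells (5.33% of all genes) and 8 were lower (2.58%). Against endothelial cells 11 of 20 were higher (4.65%) and 1, Col13a1 at 0 UMIs, was lower (5.24%). Against B-lineage cells 20 of 22 were higher (12.2%) and 0 were lower (5.63%). Fibrillar genes held 42.0% of mural collagen UMIs in CGG-Cit and 47.6% in CGG, and type IV genes 33.5% in CGG-Cit and 30.9% in CGG.

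Col4a1 had 3875 CPM in CGG mural cells, 20.2-fold its level in CGG mesenchymal cells (19.0 to 21.5), and Col4a2 had 2330 CPM (19.2-fold). Col18a1 had 875 CPM (11.8-fold) and Col15a1 168 CPM (4.94-fold). Col4a4 reached 48.1 CPM in CGG mural cells from 16 UMIs in 8 of 60 cells, against 3.20 CPM in mesenchymal cells, and Col25a1 12.0 CPM from 4 UMIs in 2 cells. In the same cells Col3a1 had 4134 CPM, 5.40-fold its level in CGG endothelial cells, and Col5a3 424 CPM, 10.0-fold. Col6a1 and Col6a2 had 1118 and 983 CPM, 8.41-fold and 10.1-fold. The 8 genes past 4-fold below CGG mesenchymal cells were Col1a1, Col1a2, Col3a1, Col8a1, Col8a2, Col11a1, Col12a1 and Col14a1. The type I and type III genes were thus lower in mural than in mesenchymal cells, with 595 UMIs of Col1a1 and 777 of Col1a2 in CGG mural cells. Col8a2 rested on 2 UMIs (6.01 CPM) and Col11a1 on 8 UMIs (24.1 CPM).

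The 8 CGG-Cit mural cells gave 1150 collagen UMIs and no comparison between hydrogels was made from them. Their most abundant members were Col4a1 with 216 UMIs, Col1a2 with 166, Col4a2 with 162, Col3a1 with 156, Col18a1 with 91 and Col1a1 with 81.

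Within the mesenchymal gate, cells were split by lists of 8 genes each, with at least 2 detected and more than of any other list. The Sfrp2-list subset (Sfrp2, Dpt, Pi16 and other fibroblast genes) held 26 CGG-Cit and 1941 CGG cells. The dura-list subset (Slc47a1, Foxc2 and other genes of the brain's covering) held 10 of 43 CGG-Cit cells (23.3%, 11.8 to 38.6) and 105 of 2376 CGG cells (4.42%, 3.63 to 5.32). The osteoblast-list subset held 0 of 43 CGG-Cit cells (95% interval up to 8.22%) and 43 CGG cells (1.81%). The Cxcl12-list subset (Cxcl12, Lepr and other marrow stroma genes) held 1 CGG-Cit and 34 CGG cells. Subsets were compared with each other in CGG, apart from 1 ratio of type VI chains given in both libraries, at median depths of 13842 UMIs for osteoblast-list, 14398 for dura-list, 2405 for Cxcl12-list and 5819 for Sfrp2-list cells.

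Osteoblast-list cells gave 14.99% of their UMIs to collagen, against 6.94% in Sfrp2-list cells. Col1a1 had 65752 CPM in osteoblast-list cells and 19026 CPM in Sfrp2-list cells, and Col1a2 60535 CPM in osteoblast-list and 21589 CPM in Sfrp2-list cells. Col1a1 exceeded Col1a2 here, at 1.09 UMIs for each (1.07 to 1.10), but not in Sfrp2-list cells, at 0.881 (0.877 to 0.885). Past 4-fold, 5 of 35 collagen genes were higher in osteoblast-list cells (1.43% of all genes) and 4 lower (2.51%). Col11a2 had 709 CPM against 2.23 CPM, but its 525 UMIs came from 6 of 43 cells, 251 of them from 1 cell. Col22a1, a collagen of tissue junctions, had 126 CPM from 93 UMIs in 4 cells, 49 of them in 1 cell, and 0 UMIs in Sfrp2-list cells, at least 862-fold higher against a floor of 3 UMIs over the subset. Col13a1 had 39.1 CPM against 0.146 CPM, from 29 UMIs in 7 cells. Col9a1, from 5 UMIs, and Col9a2, from 6 UMIs, were the others above, and Col14a1 (58.0 CPM against 804 CPM), Col8a1 (219 against 1094 CPM), Col4a5 and Col15a1 were below.

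Dura-list cells gave 3.08% of their UMIs to collagen, and 5 of 34 collagen genes were 4-fold higher there than in Sfrp2-list cells (3.27% of all genes) and 3 lower (3.61%). Those above were rare collagens. Col23a1 had 85.8 CPM against 6.36 CPM (13.5-fold, 10.6 to 17.2), in 52 of 105 cells. Col25a1, a transmembrane collagen known from neurons and muscle innervation, had 39.6 CPM against 0.194 CPM (204-fold, 76.0 to 771), in 32 cells. Col26a1 had 24.6 CPM against 1.16 CPM, Col11a2 28.8 CPM against 2.23 CPM, and Col4a6 5.40 CPM against 1.07 CPM from 9 UMIs. Col5a1 (177 against 962 CPM), Col5a3 (24.6 against 216 CPM) and Col6a6 (0 against 284 UMIs) were below. Type VI chains were unbalanced: Col6a3 had 0.156 UMIs for each Col6a1 UMI in CGG dura-list cells (0.139 to 0.175), against 0.472 in Sfrp2-list cells (0.463 to 0.482). The 10 CGG-Cit dura-list cells gave 0.105 (0.0625 to 0.166), against 0.439 in the CGG-Cit Sfrp2-list cells (0.380 to 0.506).

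The 34 Cxcl12-list cells were higher 4-fold in 4 of 33 collagen genes (1.77% of all genes) and lower in 0 (0.484%). Col4a1 had 1246 CPM against 138 CPM in Sfrp2-list cells and Col4a2 737 CPM against 91.3 CPM. Col15a1 had 155 CPM against 36.6 CPM, from 42 UMIs in 8 cells, 20 of them in 1 cell, and Col6a5 70.0 CPM against 11.0 CPM. Col4a1, Col4a2 and Col15a1 were also among the genes past 4-fold higher in endothelial than in mesenchymal cells of CGG. Of the 338 Col4a1 UMIs in this subset, 112 came from 1 of 21 positive cells.

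**Figure D3:**
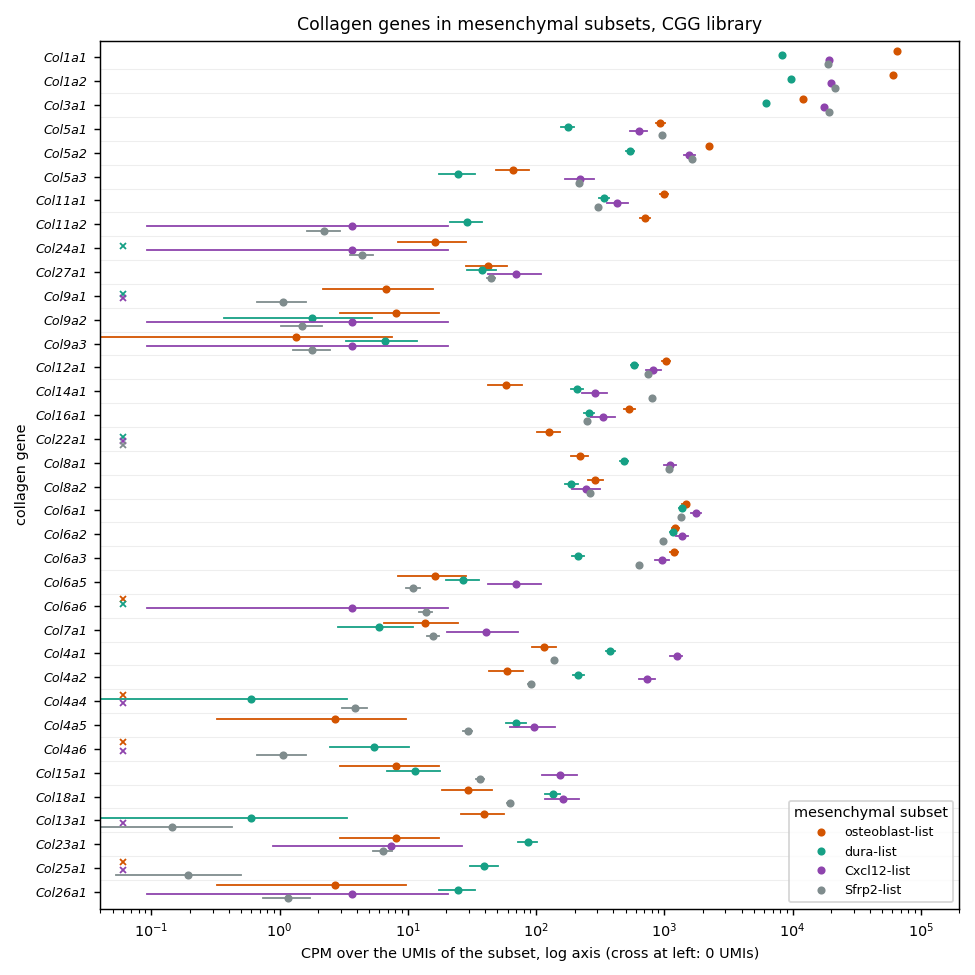
CPM (log axis) of collagen genes with at least 20 UMIs in a subset, in 4 mesenchymal subsets of the CGG library, with 95% counting intervals and crosses for 0 UMIs. Osteoblast-list cells stand to the right for Col1a1, Col1a2, Col11a2, Col13a1 and Col22a1, dura-list cells for Col23a1, Col25a1 and Col26a1, and Cxcl12-list cells for Col4a1 and Col4a2.

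Between hydrogels, the mesenchymal collagen level was nearly the same. Summed collagen UMIs gave a log2 ratio of -0.09, CGG-Cit over CGG. Past a 2-fold difference with at least 20 UMIs over both libraries, 4 of 37 collagen genes were higher in CGG-Cit (5.09% of all 13445 genes so tested) and 4 were lower (4.98%). The median log2 ratio was -0.11 over the 26 collagen genes of at least 10 CPM, beside -0.05 over all 8367 such genes. Col1a1, Col1a2, Col3a1, Col6a1, Col6a2, Col6a3, Col4a1 and Col4a2 stayed within 2-fold.

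The 8 genes past the fold were low ones. Col15a1 had 7.86 CPM from 6 UMIs in CGG-Cit mesenchymal cells, against 34.1 CPM from 863 UMIs in CGG (ratio 0.231, 0.0844 to 0.504). Col5a3 had 72.1 CPM in CGG-Cit against 186 CPM in CGG (0.387, 0.291 to 0.505). Col11a2 had 5.24 CPM in CGG-Cit against 25.6 CPM in CGG (0.205, 0.0557 to 0.527), and Col6a5 1.31 CPM in CGG-Cit against 14.2 CPM in CGG from 1 UMI in CGG-Cit and 359 UMIs in CGG (0.0924, 0.00233 to 0.518, and 3.61-fold lower with CGG-Cit raised to the floor of 3 UMIs). Of the 647 CGG UMIs of Col11a2, 525 lay in the osteoblast-list subset, of which CGG-Cit held 0 cells. Above the fold, Col9a1 had 22.3 CPM in CGG-Cit, but 14 of its 17 UMIs came from 1 of 3 positive cells, against 1.26 CPM in CGG (17.6-fold, 9.17 to 32.7). Col9a3 had 14.4 CPM in CGG-Cit against 2.53 CPM in CGG, from 11 UMIs in CGG-Cit and 64 UMIs in CGG, its 11 UMIs lying in 6 cells (5.70-fold, 2.71 to 10.9). Col23a1 had 28.8 CPM in CGG-Cit against 12.1 CPM in CGG (2.39, 1.48 to 3.69), with 17 of its 22 CGG-Cit UMIs in the 10 dura-list cells. Col26a1 had 7.86 CPM in CGG-Cit against 3.28 CPM in CGG from 6 UMIs (2.40, 0.855 to 5.44).

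Within the Sfrp2-list subset alone, a comparison added after the data were seen, 2 of 34 collagen genes were higher in CGG-Cit (5.35% of all genes) and 2 were lower (5.75%). Col5a3, at 101.9 CPM in CGG-Cit and 216 CPM in CGG, and Col15a1, at 12.2 CPM in CGG-Cit and 36.6 CPM in CGG, were the lower ones. The subset is part of the gate, so this is not a second observation. It held 50 of the gate's 55 Col5a3 UMIs in CGG-Cit and 4457 of 4712 in CGG. For Col15a1 it held 6 of 6 UMIs in CGG-Cit and 754 of 863 in CGG. Col9a3, from 6 UMIs in CGG-Cit and 37 UMIs in CGG, and Col6a4, from 1 UMI in CGG-Cit and 19 UMIs in CGG, were higher. The Col6a4 levels, 2.04 CPM in CGG-Cit (0.0516 to 11.4) and 0.922 CPM in CGG (0.555 to 1.44), have overlapping intervals. Col23a1 had 10.2 CPM in CGG-Cit and 6.36 CPM in CGG there (1.60, 0.512 to 3.84). The summed log2 ratio was 0.11 in this subset, against -0.09 for the whole gate. Median depth was 16575 UMIs in CGG-Cit and 6114 in CGG mesenchymal cells; its part in these differences was not tested beyond the alternatives listed at the end.

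**Figure D4:**
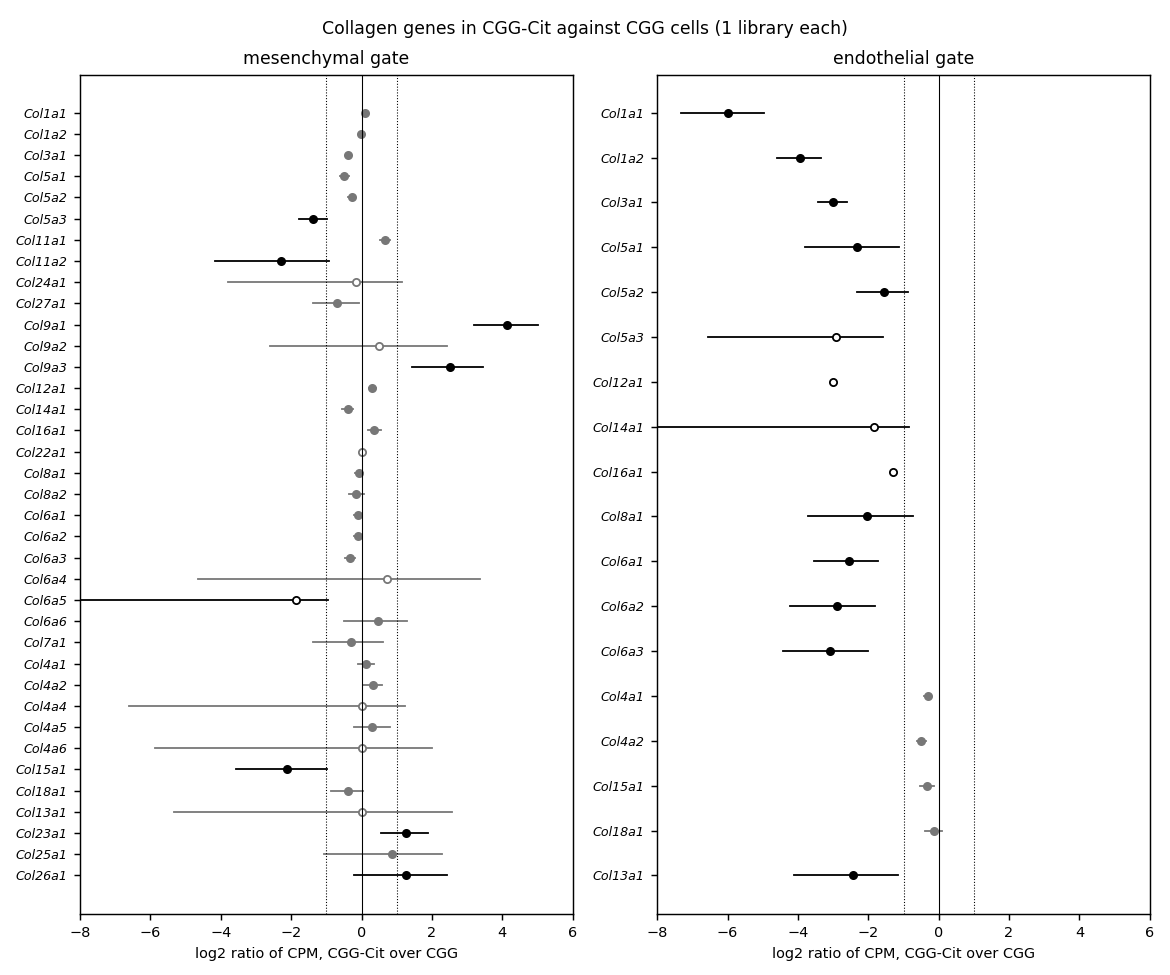
Log2 ratio of CPM, CGG-Cit over CGG, for collagen genes with at least 20 UMIs over both libraries, with 95% counting intervals (none at 0 UMIs) and dotted lines at 2-fold. Black marks genes past 2-fold and open circles genes with at most 3 UMIs in CGG-Cit. Only a lower side under 3 UMIs was raised to 3 UMIs. Most mesenchymal genes lie between the dotted lines, and in endothelial cells Col4a1, Col4a2, Col15a1 and Col18a1 do.

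In endothelial cells the vessel genes differed little between hydrogels and most others were lower in CGG-Cit. Col4a1 had 2062 CPM in CGG-Cit and 2560 CPM in CGG (ratio 0.805, 0.753 to 0.861), and Col4a2 had 1043 CPM in CGG-Cit and 1469 CPM in CGG (0.710, 0.646 to 0.779). Col15a1 had 512 CPM in CGG-Cit and 643 CPM in CGG (0.797, 0.695 to 0.912), and Col18a1 373 CPM in CGG-Cit and 412 CPM in CGG (0.906, 0.769 to 1.06). Of 18 collagen genes tested, 0 were 2-fold higher (2.31% of all genes) and 14 were lower (10.6%), with a median log2 ratio of -2.44 over 17 members of at least 10 CPM, beside -0.09 over all 8359 such genes. Of these 14, 13 are fibrillar, type VI, fibril-associated or hexagonal-network genes. Col1a1 was lowest, with 7 UMIs in 46 CGG-Cit cells and 1337 UMIs in 198 CGG cells (ratio 0.0156, 0.00626 to 0.0322), followed by Col1a2 at 43.1 CPM in CGG-Cit and 657 CPM in CGG. The background moved the same way: B-lineage cells had 5.26 CPM of Col1a1 in CGG-Cit and 382 CPM in CGG, and Col1a2 6.45 CPM in CGG-Cit and 367 CPM in CGG. With the B-lineage level of the same library subtracted, 10 collagen genes were 2-fold lower. The share of all genes past the fold was not computed at this setting. For Col5a3 the subtracted level was 27.6 CPM in CGG-Cit and 41.8 CPM in CGG, above the other blood gates described below. Whether that level is free RNA alone was not tested.

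Col13a1 was the other gene of the 14, at 9.38 CPM from 5 UMIs in CGG-Cit and 51.0 CPM from 81 UMIs in CGG endothelial cells (0.184, 0.0581 to 0.447). B-lineage cells held 0 UMIs of it in both libraries, in 3834 CGG-Cit and 921 CGG cells. After thinning to 1000 UMIs, 1 of 45 CGG-Cit (2.22%) and 8 of 193 CGG endothelial cells (4.15%) kept a Col13a1 UMI, shares whose intervals, 0.0562 to 11.8 and 1.81 to 8.004, overlap.

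The enzymes and partners that collagen needs were read from lists of named genes. In mesenchymal cells, of 13 tested genes of hydroxylation and glycosylation, 8 of chaperones and export, 12 of processing and crosslinking, 9 collagen receptors and 9 basement membrane partners, 0 passed 2-fold in either direction between hydrogels, where 5.09% of all genes were higher in CGG-Cit and 4.98% lower. Serpinh1, the collagen chaperone, had 1672 CPM in CGG-Cit and 1593 CPM in CGG mesenchymal cells. Lox, which crosslinks collagen, had 656 CPM in CGG-Cit and 767 CPM in CGG, Pcolce, which enhances propeptide removal, 714 CPM in CGG-Cit and 675 CPM in CGG, and Ppib, a folding enzyme, 1319 CPM in CGG-Cit and 933 CPM in CGG. Hspg2 (perlecan), which binds the vessel sheet, had 145 CPM in CGG-Cit and 252 CPM in CGG, and Nid1, which links laminin to type IV collagen, 635 CPM in CGG-Cit and 817 CPM in CGG.

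In endothelial cells, where 10.6% of all genes were 2-fold lower in CGG-Cit and 2.31% higher, 6 of 6 tested processing and crosslinking genes were lower: Bmp1, Adamts2, Pcolce, Lox, Loxl1 and Loxl2. Pcolce had 7.504 CPM from 4 UMIs in CGG-Cit and 28.3 CPM from 45 UMIs in CGG endothelial cells, and Lox 1.88 CPM from 1 UMI in CGG-Cit and 17.0 CPM from 27 UMIs in CGG. B-lineage cells had 0.353 CPM of Pcolce in CGG-Cit and 16.6 CPM in CGG, and 0.177 CPM of Lox in CGG-Cit and 11.4 CPM in CGG; the part of this background was not tested. Also lower were 2 of 14 hydroxylation and glycosylation genes (P4ha2 and Colgalt2), 2 of 4 receptors (Ddr2 and Lair1), 1 of 9 basement membrane partners (Nid2) and 0 of 7 chaperone and export genes, and 0 genes of any list were higher.

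Endothelial cells differed from mesenchymal cells in the same lists. In CGG, where 6.02% of all genes were 4-fold higher in endothelial cells and 6.30% lower, 0 of 12 processing and crosslinking genes were higher and 8 were lower, Lox at 17.0 CPM against 767 CPM, Pcolce at 28.3 against 675 CPM and Loxl1 at 19.5 against 485 CPM. Of 15 hydroxylation and glycosylation genes, 6 were lower, among them P3h3 (15.7 against 189 CPM) and P4ha3 (2.52 against 76.8 CPM), and 2 were higher: P3h2, a prolyl 3-hydroxylase that acts on type IV collagen, at 34.0 against 0.474 CPM, and Colgalt2, a glycosyltransferase, at 13.9 against 0.119 CPM. Of 8 chaperone and export genes 3 were lower (Fkbp14, Fkbp7 and Creb3l1) and Serpinh1, at 622 against 1593 CPM, was within 4-fold. Of 9 receptors, Itga1 (92.0 against 9.01 CPM) and Itga2 (8.19 against 1.42 CPM), integrin chains that bind collagen, were higher and 5 were lower, such as Mrc2 (10.1 against 260 CPM) and Itga11 (1.89 against 74.0 CPM). Of 9 basement membrane partners, Lama5 was higher (80.0 against 0.790 CPM) and 0 were lower, beside the same 6.02% and 6.30% of all genes.

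B-lineage cells, taken as background, carried Col5a3 and Col27a1 above the level of the other blood gates compared. The blood gates compared here and below were B-lineage, T and NK, neutrophil, monocyte and macrophage, and erythroid cells. Mast and basophil and dendritic gates were left out. Over the 37 collagen genes tested in CGG, 29 were 4-fold higher in mesenchymal than in B-lineage cells (18.4% of all genes) and 0 were lower (8.72%). In CGG-Cit 20 of 23 were higher (15.8%) and 0 were lower (8.52%). The B-lineage level was a median 0.0502% of the mesenchymal level over 23 members in CGG-Cit and 2.65% over 37 in CGG. Against this, Col27a1 stood at 62.1% (40.1 to 101) of the mesenchymal level in CGG-Cit and 49.3% (39.4 to 61.0) in CGG. Col5a3 stood at 38.2% in CGG-Cit (29.0 to 51.3) and 22.4% in CGG (19.2 to 26.1), and Col25a1 at 32.02% in CGG-Cit (11.5 to 124) and 24.7% in CGG (4.98 to 75.04), from 38 B-lineage UMIs in CGG-Cit and 3 in CGG.

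Col5a3, a minor fibrillar chain, had 27.6 CPM from 624 UMIs in 383 CGG-Cit B-lineage cells and 41.8 CPM from 176 UMIs in 110 CGG B-lineage cells. The highest other blood gate had 0.852 CPM in CGG-Cit and 6.26 CPM in CGG. Col27a1, a fibrillar chain known from cartilage, had 17.1 CPM in CGG-Cit, from 387 UMIs in 320 cells, and 21.8 CPM in CGG, from 92 UMIs in 81 cells, against at most 0.828 CPM in CGG-Cit and 3.89 CPM in CGG in another blood gate. Neither gene overlaps the exons of another counted gene in the annotation: Col5a3 is on chromosome 9 from 20770050 to 20815067 and Col27a1 on chromosome 4 from 63214004 to 63334991 (GRCm38). After thinning to 1000 UMIs, 4.93% of CGG-Cit and 6.56% of CGG B-lineage cells kept a Col5a3 UMI, and 3.32% of CGG-Cit and 2.52% of CGG cells a Col27a1 UMI. Unthinned, the shares for Col5a3 were 9.99% in CGG-Cit and 11.9% in CGG, and those for Col27a1 8.35% in CGG-Cit and 8.79% in CGG.

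The B-lineage cells were then split by stage genes, a split chosen after these values were seen. Col5a3 was highest in cells with Rag1, which rearranges antigen receptor genes, and without Dntt, Mki67 or Top2a, at 103 CPM in CGG-Cit (91.6 to 116) and 158 CPM in CGG (129 to 192). It had 7.20 CPM in CGG-Cit and 8.54 CPM in CGG in cells with Dntt (early progenitors) and 9.78 CPM in CGG-Cit and 12.8 CPM in CGG in cycling cells. Col27a1 had 44.4 CPM in CGG-Cit and 44.1 CPM in CGG in Dntt cells, 49.5 CPM in CGG-Cit and 44.6 CPM in CGG in the Rag1 cells and 5.60 CPM in CGG-Cit and 10.6 CPM in CGG in cycling cells. In cells with Ms4a1 and none of these genes, Col5a3 had 45.3 CPM in CGG-Cit and 35.7 CPM in CGG and Col27a1 10.49 CPM in CGG-Cit and 8.62 CPM in CGG. Col5a3 thus stood highest in the Rag1 cells of both libraries, and Col27a1 was higher in the Dntt and Rag1 cells than in the cycling and Ms4a1 cells of both. Col1a1, set beside them, had 9.60 CPM in Rag1, 7.17 CPM in Ms4a1, 6.80 CPM in Dntt and 3.76 CPM in cycling cells of CGG-Cit. In CGG it had 599.8 CPM in Rag1 cells (542 to 662) and 534.5 CPM in Ms4a1 cells (485 to 587). It had 279 CPM in Dntt cells and 239 CPM in cycling cells there. Depth per cell differed between stages, and its part in these levels was not tested. In CGG, Col1a1 was detected in 85.9% of cycling, 84.03% of Dntt, 77.2% of Rag1 and 76.5% of Ms4a1 cells. Col5a3 was detected most often in Rag1 cells, at 17.4% in CGG-Cit and 22% in CGG. Col27a1 was detected in 24.4% of Dntt and 11.8% of Rag1 cells in CGG-Cit, and in 21.01% and 10.8% in CGG.

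Col5a1 was present in erythroid cells, at 18.2 CPM from 232 UMIs in 96 of 775 CGG-Cit cells and at 19.1 CPM from 94 UMIs in 62 of 409 CGG cells. The highest other blood gate had 1.53 CPM in CGG-Cit but 24.9 CPM in CGG, so only the CGG-Cit library separated the gate. Its usual partner Col5a2 had 0.236 CPM in the same CGG-Cit cells and 14.8 CPM in CGG. Split by the erythroid membrane gene Slc4a1, again after the values were seen, the 44 CGG-Cit cells without a UMI of it had 40.7 CPM of Col5a1 (32.8 to 50.01) and the 731 with one 13.4 CPM (11.3 to 15.8). In CGG the 6 cells without had 30.4 CPM from 7 UMIs (12.2 to 62.6) and the 403 with one 18.5 CPM.

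**Figure D5:**
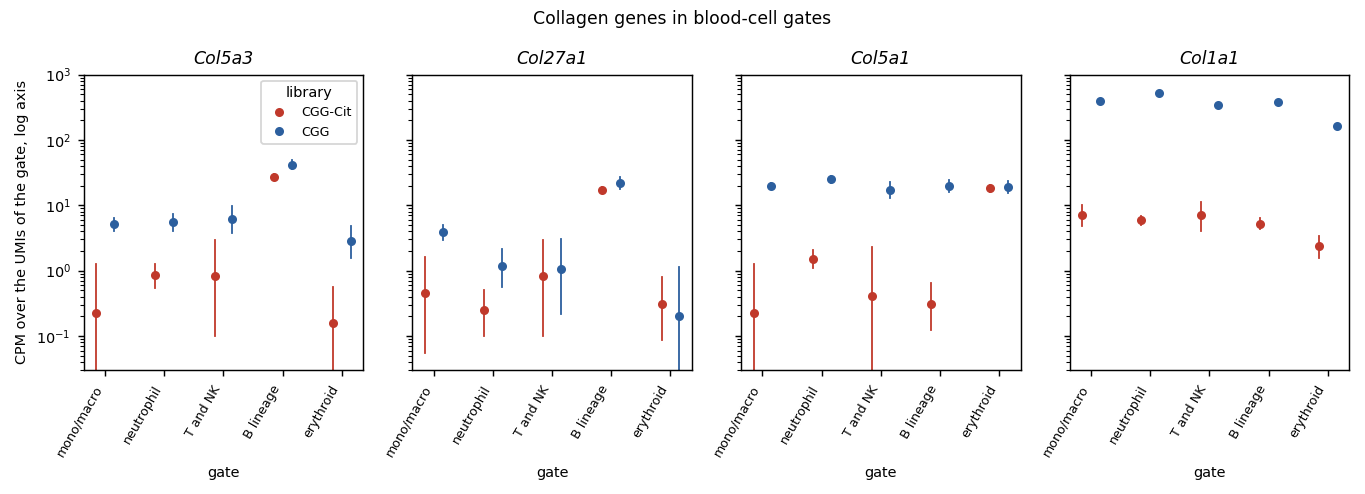
CPM (log axis) of 4 collagen genes in 5 blood-cell gates, CGG-Cit left of CGG in each gate, with 95% counting intervals. Col1a1 stands higher in CGG in every gate, whereas Col5a3 and Col27a1 peak in B-lineage cells of both libraries and Col5a1 in erythroid cells of CGG-Cit.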

How the data were processed

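The authors deposited, for each library, a matrix of raw UMI counts per gene and barcode, not normalized. Per the file headers it was made with Cell Ranger 4.0.0, while the submitters' processing notes name Cell Ranger 3.0 and the build mm10. Per the labels the 3′ kit was version 2 or 3.

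The members and gene lists were chosen with earlier results of these data known. Cells were kept with at least 200 genes and at most 20% mitochondrial UMIs. Doublets were predicted with Scrublet (scanpy 1.11.5, Python 3.11.15): its own threshold marked 537 CGG-Cit cells but 1 CGG cell, so 0.8% per 1000 barcodes was applied to CGG, removing 1231. UMIs were summed over a gate and library. Intervals are exact: Poisson for levels, conditional binomial for ratios, Clopper-Pearson for shares. For fold calls, medians and plots, a lower side under 3 UMIs over the gate was raised to 3; ratios printed with an interval are from the UMIs as counted. The interval code was checked on simulated data. Named were the 10 highest members of each stromal or vessel gate in CGG. Also named were those with at least 50 UMIs past 4-fold between these gates in CGG or past 2-fold between hydrogels. Not each of them is given with its value in every gate. Others named were chosen after their values were seen. Alternatives are given at the end. The gated cells are named for their markers only.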

Additional observations from a re-analysis of the deposited data

Results flagged for a closer look

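Signals appeared in blood cells, outside the mesenchymal and vessel gates, above the other blood-cell gates compared in the same CGG-Cit library, with intervals that do not overlap. The gates compared were B-lineage, T and NK, neutrophil, monocyte and macrophage, and erythroid cells, without the mast and basophil or dendritic gates. Col5a3 in B-lineage cells stood at 27.6 CPM in CGG-Cit (25.4 to 29.8), with at most 0.852 CPM in another blood gate. Col27a1 in B-lineage cells stood at 17.1 CPM (15.4 to 18.9), with at most 0.828 CPM elsewhere. Both also stood apart in the CGG library. Col5a1 in erythroid cells stood at 18.2 CPM (15.95 to 20.7), with at most 1.53 CPM elsewhere, and did not stand apart in CGG. Genes were marked where the gate held at least 20 UMIs in CGG-Cit. No cause was tested.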

How the results depend on the processing

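Over the summed ratios and counts, 154 of 169 alternative values stayed within the counting interval or within 1.5 times the count, 14 moved and 1 turned. The log2 ratio of summed collagen UMIs, CGG-Cit over CGG, was -0.09 in mesenchymal cells. It was -0.071 with predicted doublets kept, -0.036 with median-of-ratios scaling and -0.057 with the B-lineage level subtracted. The endothelial value was -0.92, and it was -1.54 with a stromal list without Dcn and Lum, -1.01 with doublets kept, -0.84 with median-of-ratios scaling and -0.65 with the B-lineage level subtracted. Further alternatives were chosen after seeing the data. With cells of at least 5000 UMIs the ratios were -0.12 in mesenchymal and -0.82 in endothelial cells, and with a margin of 1 marker -0.11 and -1.42. In the Sfrp2-list subset alone the mesenchymal ratio was 0.11, on the other side of 0, and 2 genes were higher and 2 lower, against 4 and 4 in the whole gate. With a mean of at least 10 CPM, 2 of 26 collagen genes were higher in CGG-Cit mesenchymal cells (2.4% of all 8367 such genes) and 3 were lower (4.47%). The cause was not tested. Of 847 alternative values of single genes, 106 moved and 0 changed direction. These genes were picked for being past the fold in the main setting, with at least 50 UMIs over both sides. A change of direction was therefore unlikely from the start, and a ratio set to 1 by the floor was not counted as one. Median-of-ratios scaling removed the median log2 ratio over genes with a UMI on both sides and a mean of at least 10 CPM. In CGG this median was 0.23 for endothelial over mesenchymal cells, -0.23 for mesenchymal over B-lineage cells and 0.21 for mural over mesenchymal cells. No paired analysis was possible because each hydrogel has 1 library. The 43 mesenchymal, 46 endothelial and 8 mural cells of CGG-Cit limit what its rare collagens can show.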
